A study of Mus musculus with 8 samples.

Results

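Macrophages that transcribe the 3 chains of C1q were examined in digests of trabecular bone and growth plate from adult mouse tibiae. A barcode of the droplet sequencing was taken as a C1q macrophage if it had at least 800 detected genes, at most 20% of its unique molecular identifiers (UMIs) from mitochondrial genes, at least 8 UMIs of C1qa, C1qb and C1qc together, and at least 1 UMI of Csf1r, the receptor for macrophage colony-stimulating factor. Of the 12564 barcodes, 9261 passed the gene and mitochondrial limits and 80 of these were C1q macrophages, which is 0.864% (exact 95% interval 0.686% to 1.07%) of those that passed.

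All mice carried 1 floxed and 1 wild-type allele of Mmp14 (MMP14 F/+), the recombinase COL10A1cre, which is active in hypertrophic chondrocytes (HCs), the Cre-dependent reporter R26-tdT, which makes tdTomato, and the transgene Col1a1-2.3-GFP, which marks osteoblasts. They were untreated and 8 weeks old (postnatal day 56), and cells of 3 animals were pooled. All 8 samples carry the labels of 1 group, and their single matrix ties no barcode to a sample or mouse, so that no value below has a replicate and no test between cells was made. The digests were made to obtain cells of cartilage and bone, and the first digests, which hold most blood cells, were discarded, so that the share of macrophages given above is that of this preparation and not of the marrow.

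C1q is the recognition molecule of the classical complement pathway, built from chains encoded by 3 neighbouring genes, and in most tissues it is made by resident macrophages. Marrow macrophages sit at the centre of erythroblastic islands, where they hold developing red cells through Vcam1, engulf the nuclei these expel and return the iron of haem to the circulation. They also clear aged neutrophils. Blood monocytes, marked by the chemokine receptor Ccr2, are made in the same marrow and can replace macrophages in many tissues.

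The comparison group were 738 barcodes that passed the same limits with at least 1 UMI each of Ccr2 and Ms4a6c and none of C1q, called Ccr2 monocytes here. The C1q macrophages held 771610 UMIs, from 2020 to 37983 per cell with a median of 7456.5 UMIs and 2437 genes, and the monocytes 8983551 UMIs with a median of 8794 UMIs and 2486 genes. Values are UMIs summed over the cells of a group, as CPM (UMIs of a gene per 1000000 UMIs of the group) with exact Poisson 95% intervals, and ratios of CPM are on the log2 scale. All intervals cover counting error only and not the variation between cells or mice. The monocyte group is not free of other cells. Of its 738 barcodes, 20 also met the rule used here for erythroblasts, 21 that for neutrophils, 37 that for B-lineage cells and 5 that for chondrocytes. The C1q macrophages were left out of these classes, but 1 of the 80 met the neutrophil rule, 5 the B-lineage rule and 0 the other 2. A doublet caller marked 46 of the monocytes and 1 of the C1q macrophages.

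The values that chose the cells, and those of cells near the limits, were as follows. C1q UMIs per cell were 9 at the lowest, 44.5 at the median and 161 at the highest, and 2 cells lay within 2 UMIs of the minimum. On the other side of the threshold, 29 barcodes had Csf1r and 1 to 6 C1q UMIs, of which 15 had 1 and 3 had 5 or 6. In these, Vcam1 was seen in 4 and stood at 61.1 CPM. A further 8 barcodes had between 8 and 33 C1q UMIs but no Csf1r, at a median of 3787 UMIs, and 7 of them held Vcam1. Another 25 barcodes with enough C1q failed the gene or mitochondrial limit at a median of 967 UMIs, and 20 of those held Vcam1. The 80 cells held 83.9% of the 5509 C1q UMIs of the whole pool.

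The 3 chains chose the cells, so that their values are a description only. C1qa had 1847 UMIs, C1qb 1565 and C1qc 1211, and each chain was seen in all 80 cells. Spearman's rho over the 80 cells was 0.745 for C1qa and C1qb, 0.773 for C1qa and C1qc and 0.692 for C1qb and C1qc. These cells come from 1 pool and their depth differs. C1qa exceeded C1qc in 69 of 80 cells. The genes lie side by side on the minus strand of chromosome 4 in mm10, C1qb from 136880129 to 136886187, C1qc from 136889804 to 136893065 and C1qa from 136895917 to 136898803.

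The sequence before the start of C1qb and Cd5l is shown as a description. A link between these sequences and the RNA of any transcription factor was not tested. C1qb was used in the rule and Cd5l, which encodes a secreted scavenger protein of macrophages, was not. The windows are the 250 bases upstream of the RefSeq start in GRCm38.p6, at chr4:136886201-136886450 on the minus strand for C1qb and chr3:87357631-87357880 on the plus strand for Cd5l. Capitals mark TGCTGA, the core of the half-site bound by Maf factors, and GAGGAA, a core bound by Ets factors such as Spi1, each searched on both strands.
C1qb: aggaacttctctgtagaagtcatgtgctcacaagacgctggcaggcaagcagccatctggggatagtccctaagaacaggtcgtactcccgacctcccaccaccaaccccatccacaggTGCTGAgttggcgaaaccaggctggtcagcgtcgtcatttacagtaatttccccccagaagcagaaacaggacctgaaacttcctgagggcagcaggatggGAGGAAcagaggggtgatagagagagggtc
Cd5l: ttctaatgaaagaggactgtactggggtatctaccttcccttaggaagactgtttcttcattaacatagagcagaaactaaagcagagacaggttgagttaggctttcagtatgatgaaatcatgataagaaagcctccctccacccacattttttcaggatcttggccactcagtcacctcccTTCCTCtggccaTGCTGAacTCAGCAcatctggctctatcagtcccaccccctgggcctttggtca

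In the C1qb window TGCTGA begins 131 bases and GAGGAA 30 bases before the start. In the Cd5l window TGCTGA begins 54 bases and its reverse complement TCAGCA 46 bases before the start, and TTCCTC, the reverse complement of GAGGAA, 66 bases before it. Of the other genes described here that have a window in the same table, Spic and Ccl8 hold TGCTGA and C1qc, Mrc1 and Ccr2 do not, while C1qc, Mrc1 and Ccl8 hold GAGGAA and Spic and Ccr2 do not. Among all 32851 windows of this length, 16.1% hold the first word and 23.3% the second. A match is a description of these letters and not of binding. In the counts, Maf was at 241 CPM (208 to 278) in the C1q macrophages and 17.7 CPM in the monocytes, a log2 ratio of 3.77 (3.45 to 4.08). Spi1, the Ets factor that all myeloid cells need, differed less, at 0.42 (0.22 to 0.61).

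To check the label, markers of resident macrophages were counted. Of 20 listed genes, 14 had the minimum of 50 UMIs in both groups together, and all 14 were at least 2-fold higher in the C1q macrophages, with a median log2 ratio of 6.02 against -0.06 over all 8846 genes tested. Of the 14, 5 had under 50 UMIs in the monocytes (Mertk, Cd163, Cd5l, Cd4 and Itgad) and passed the minimum through the group in which they are high, so that they had to differ. The other 9 had a median log2 ratio of 3.43, from 1.39 (Cd68) to 7.93 (Vcam1). The same minimum was used for every list below, and counts of lists describe the genes that passed it. Over all genes, 12.1% were at least 2-fold higher (1070 genes) and 12.6% at least 2-fold lower (1112 genes). When each gene was taken without the cell that held most of it, 890 were higher and 1777 lower. These are counts of ratios past 2-fold without a test. Of the 1112 lower genes, 720 had under 10 UMIs in the C1q macrophages, so that their ratios rest on few counts there. Among the 2400 genes with at least 50 UMIs in these cells, 471 were higher and 105 lower. This minimum was set on the C1q macrophages alone, which favours genes high in them and leaves out lower ones. The balance of these counts thus cannot be read as a result. The other 6 listed macrophage genes were below the minimum for both groups together. Of these, Vsig4, a complement receptor of liver and serosal macrophages, had no UMI. Adgre1, which encodes F4/80, was seen in 71 of 80 cells, Mrc1 in 71, Vcam1 in 58 and Mertk in 46. In the neutrophil barcodes, which should lack them, Mertk was seen in 0%, Mrc1 in 0.302%, Adgre1 in 2.11% and Vcam1 in 13.9%, at a median of 8300.5 UMIs. All 4 were seen in 39 macrophages, 3 in 17, 2 in 18, 1 in 3 and none in 3. Other genes of the list were seen in fewer cells, with Cd4 in 35, Cd163 in 23, Siglec1 in 22, Cd5l in 20, Timd4 in 5 and Lyve1 in 3.

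**Figure D1:**
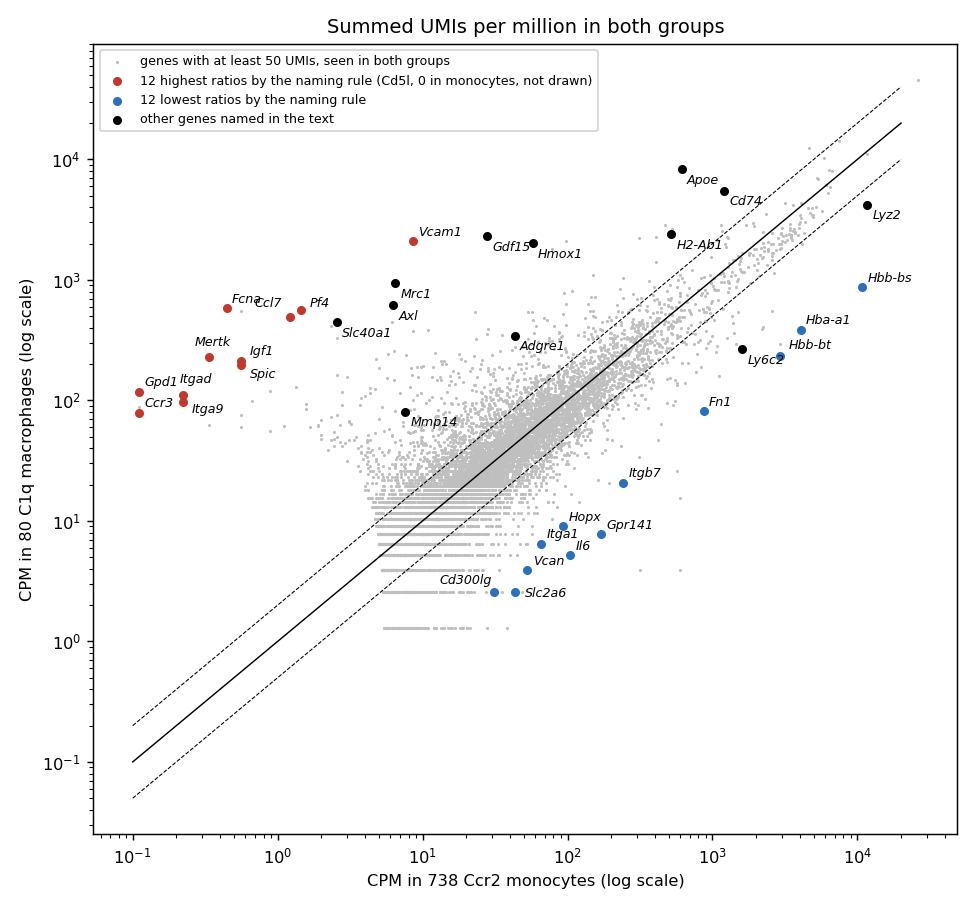
CPM of each gene in the 738 Ccr2 monocytes (x axis, log scale) and in the 80 C1q macrophages (y axis, log scale), with the line of equality and dashed lines at 2-fold. The 11 drawn genes with the highest ratios, among them Fcna, Mertk, Spic and Vcam1, lie at the far left, and the globin genes, Fn1 and Gpr141 lie below the lines.

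The genes with the highest ratios were chosen among those seen in at least 25% of the C1q macrophages. Cd5l had 134 UMIs in 20 cells and 0 UMIs in the monocytes, so that it was at least 520-fold higher when 3 counts are allowed over all monocytes. Fcna, which encodes ficolin A, a lectin that starts the complement cascade, had 448 UMIs in 47 cells against 4 UMIs, a log2 ratio of 10.35 (8.98 to 12.23). Mertk, a receptor that recognises dying cells, had 177 UMIs against 3, or 9.42 (7.85 to 11.72). The cell adhesion gene Vcam1 was the most abundant of this group at 2084 CPM (1983 to 2188) against 8.57 CPM, a log2 ratio of 7.93 (7.60 to 8.27), and of 8.90 with each cell weighed the same and 8.89 thinned to 2000 UMIs. The remaining genes were Gpd1 (glycerol-3-phosphate dehydrogenase), Ccr3 (a chemokine receptor), the integrin genes Itgad and Itga9, the chemokine genes Ccl7 and Pf4, the growth factor gene Igf1 and Spic, with log2 ratios between 8.46 and 10.05. Gpd1 and Ccr3 had 1 UMI in the monocytes and Itgad and Itga9 had 2, so that the intervals of these 4 are wide, for Gpd1 from 7.53 to 15.37.

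Genes of iron and haem recycling were the first functional group examined. Of 20 listed genes, 19 were tested, 16 were at least 2-fold higher and none 2-fold lower, with a median log2 ratio of 1.98. Without Cd163, Cp, Nr1h3, Slc40a1 and Spic, which had under 50 UMIs in the monocytes, 11 of 14 were higher and the median was 1.51. Spic, a transcription factor that haem induces in macrophages, had 151 UMIs in 46 of 80 cells, with 0, 1 and 14 UMIs at the lowest, median and highest cell, against 5 UMIs in the monocytes, a log2 ratio of 8.46 (7.20 to 10.10). Slc40a1, which encodes the iron exporter ferroportin, was seen in 44 cells, ranged from 0 to 26 UMIs and had a log2 ratio of 7.44 (6.83 to 8.11). This ratio was 9.47 without cells rich in erythroid or neutrophil RNA, 8.39 with each cell weighed the same and 8.45 thinned to 2000 UMIs. Hmox1, which encodes the haem-degrading enzyme haem oxygenase-1, was seen in 68 cells, with 0, 7 and 219 UMIs at the lowest, median and highest, and a log2 ratio of 5.14 (4.99 to 5.28). Cd163, the receptor for haemoglobin bound to haptoglobin, was seen in 23 cells at a log2 ratio of 5.41 (4.75 to 6.11). The abundant ferritin genes differed less. Ftl1 had 9523 UMIs and a log2 ratio of 1.42 (1.39 to 1.45), and Fth1 had 10939 UMIs and a ratio of 0.93 (0.90 to 0.96), below 2-fold. Tfrc, the transferrin receptor by which red cell precursors take up iron, was at 0.21 on this scale.

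These genes are not silent elsewhere in the pool. Slc40a1 was at 443 CPM in the C1q macrophages and at 51.2 CPM and in 36.0% of cells in the neutrophil barcodes, at median depths of 7456.5 and 8300.5 UMIs, and Vcam1 was at 36.4 CPM in the neutrophils. Hmox1 stood at 57.3 CPM in the monocytes and 12.3 CPM in the neutrophils. At equal depth, with each cell thinned to 2000 UMIs, Vcam1 was seen in 65.6% of the C1q macrophages and 0.843% of the monocytes, Slc40a1 in 39.1% and 0.346%, Hmox1 in 65.0% and 11.8%, and Spic in 29.5% and 0.183%.

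Genes for the uptake of dead cells and for cholesterol export were the next group. Of 26 listed genes, 23 were tested, 18 were at least 2-fold higher and none 2-fold lower, and the median log2 ratio was 3.43. Without Gas6, Mertk, Nr1h3 and Pparg, which had under 50 UMIs in the monocytes, 14 of 19 were higher and the median was 3.33. Apoe, the lipid carrier apolipoprotein E, was the most abundant, with 6403 UMIs in 76 cells and 0, 55 and 314 UMIs at the lowest, median and highest cell. Its log2 ratio was 3.76 (3.70 to 3.81). Axl, a relative of Mertk, had a ratio of 6.63 (6.22 to 7.05), and their bridging ligand gene Gas6 one of 5.03, whereas Tyro3, the third receptor of this family, had 0 UMIs in the C1q macrophages. Mrc1, the mannose receptor, had 723 UMIs and a ratio of 7.18 (6.79 to 7.59). Nr1h3, which encodes the oxysterol receptor LXR alpha, was at 6.60 (5.73 to 7.60) and its target genes Abca1 and Abcg1 at 3.33 and 3.08. The cholesterol esterase Lipa stood at 2.60 and the fatty acid binding protein Fabp4 at 6.18 (5.77 to 6.62), while Fabp5 was at 0.05.

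Lysosomal genes differed by less. Of 25 tested, 13 were at least 2-fold higher, 12 less than 2-fold apart and none 2-fold lower, with a median log2 ratio of 1.04. Ctsb and Ctsd, which encode the proteases cathepsin B and D, had 2193 and 1730 UMIs and ratios of 2.59 (2.52 to 2.67) and 2.85 (2.76 to 2.94), and Lgmn, which encodes legumain, was at 3.06 (2.90 to 3.21). Ctsh and Npc2 were at -0.17 and -0.04.

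Receptors by which phagocytes sense antibody and microbes were examined next. Of 16 tested genes, 4 were at least 2-fold higher, 1 was 2-fold lower and the median log2 ratio was 0.51. Fcgr1, the high-affinity antibody receptor, was at 1.95 and Tlr7 at 1.55, while Fcer1g and Tyrobp, signalling adaptors of many myeloid receptors, were at 0.09 and -0.75. Cd14, the co-receptor for bacterial lipopolysaccharide, was the lower gene, at -1.14 (-1.30 to -0.99). In the complement list without the C1q chains, 5 of 8 tested genes were higher and none lower, and 3 of the 6 with at least 50 UMIs in the monocytes were higher. They were the receptor genes C3ar1 at 4.73 (4.20 to 5.29) and C5ar1 at 1.35, Cfp (properdin) at 1.67, Itgax at 2.08 and the regulator gene Cd55 at 3.62. C3, the central component, was at -0.80, and C2 and Cfb had no UMI in the C1q macrophages.

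**Figure D2:**
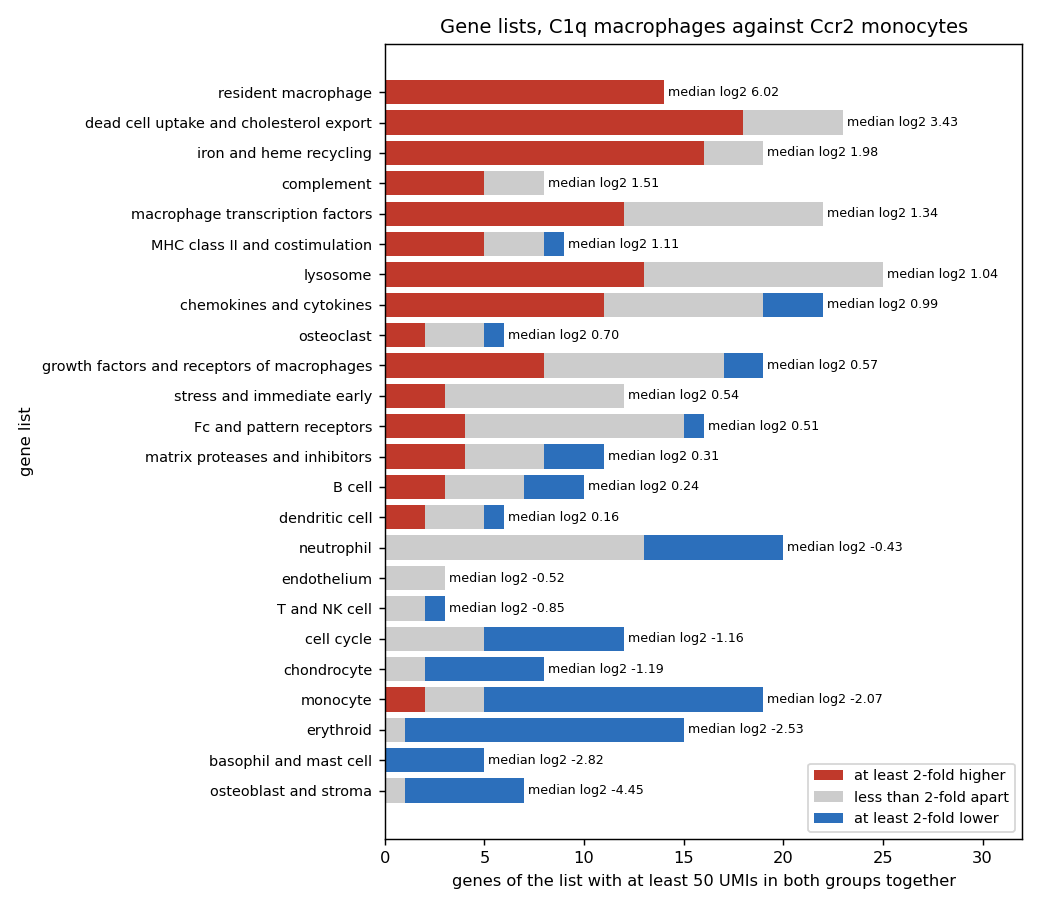
Number of genes of each list (x axis) that were at least 2-fold higher, less than 2-fold apart or at least 2-fold lower in C1q macrophages than in Ccr2 monocytes, with the median log2 ratio of the list. The resident macrophage list is at the top with 14 of 14 genes higher, and lists of other cell types are at the bottom.

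Of the listed transcription factors, 12 of 22 tested were at least 2-fold higher and none lower, with a median of 1.34, and 9 of the 19 with at least 50 UMIs in the monocytes were higher, with a median of 0.85. Spic, Nr1h3 and Maf led, followed by Hes1 at 3.43 and Cebpa at 2.10. Cebpb, which is abundant in both groups, was at 0.08. Growth factor genes were split. Igf1 was seen in 51 cells at a ratio of 8.59 (7.33 to 10.23), Pdgfb in 57 cells at 7.48 (6.84 to 8.19) and Pdgfa in 42 cells at 5.53 (5.04 to 6.05), and these act on mesenchymal cells of bone. Tgfb1 was at 0.70 and Osm at -0.06, and Csf1 itself, the ligand of Csf1r, had 5 UMIs. Csf2rb was lower at -1.10 (-1.47 to -0.75), and Hgf, with 4 UMIs, at -1.28 with an interval that includes 0 (-3.18 to 0.12). In all 8 of 19 genes of this list were higher and 2 lower, with a median of 0.57, and among the 15 with at least 50 UMIs in the monocytes 4 were higher and 2 lower, with a median of -0.01.

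Of the chemokine and cytokine genes, 11 of 22 tested were at least 2-fold higher and 3 lower, with a median of 0.99. Among the 18 with at least 50 UMIs in the monocytes 7 were higher and 3 lower, with a median of 0.48. Ccl7 and Pf4 led at 8.66 (7.81 to 9.68) and 8.60 (7.81 to 9.52). Ccl7 was seen in 27 cells, which held up to 40 UMIs each. Ccl8, another monocyte-attracting chemokine, had 82 UMIs in 16 cells and 0 in the monocytes, which makes it at least 318-fold higher, but 1 cell held 35.4% of them. Il10, an anti-inflammatory cytokine, was at 3.54 (3.15 to 3.93) with UMIs in 19 cells. The inflammatory genes Il6 and Il1b were lower, at -4.33 (-6.21 to -2.97) and -1.73, as was Ccl6 at -1.46, while Tnf was at -0.38 and Cxcl2 at -0.20. Gdf15, a stress-induced hormone, had 1767 UMIs in 65 cells at a ratio of 6.36 (6.17 to 6.55), and the C1q macrophages held 70.5% of its UMIs in the pool.

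Genes of monocytes were mostly lower. Of 19 tested, 14 were at least 2-fold lower and 2 higher, with a median of -2.07. Among the 14 with at least 50 UMIs in the C1q macrophages, 10 were lower and 1 higher, with a median of -2.08. Ly6c2, the surface antigen of classical monocytes, had 204 UMIs in 14 of 80 cells and was seen in 90.1% of the monocytes, at a ratio of -2.60 (-2.81 to -2.40). Only 4 cells held 10 or more Ly6c2 UMIs, and 2 held 62.7% of them. Plac8 was at -2.23, with 49.4% of its UMIs in 1 cell, Lyz2 (lysozyme) at -1.48 (-1.53 to -1.43) and Fn1 (fibronectin) at -3.41 (-3.79 to -3.05). Under the other settings described at the end, Ly6c2 ran from -3.74 to -2.35 and Plac8 from -3.45 to -1.95. Lyz2 ran from -1.87 to -1.38 and Fn1 from -4.16 to -3.14. The 2 higher genes were Mpeg1 at 1.15 and Treml4 at 1.62. Ccr2, which the rule used for the monocytes only, was seen in 17 C1q macrophages, and 16 of them also had Ms4a6c. Among the genes lower by the naming rule were also Gpr141, an orphan receptor, at -4.45 (-5.90 to -3.32), the glucose transporter gene Slc2a6 at -4.08, Vcan (versican) at -3.76, Cd300lg at -3.58, Hopx at -3.36 and the integrin genes Itgb7 and Itga1 at -3.54 and -3.35. Slc2a6 and Cd300lg had 2 UMIs each in the C1q macrophages. Hbb-bs, Hbb-bt and Hba-a1 completed the list and are described with the erythroid RNA.

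The 80 cells were not uniform. Vcam1 ranged from 0 UMIs in 22 cells through a median of 11 to 99. Across the 80 cells, Spearman's rho of Vcam1 CPM was 0.837 with Fcna, 0.823 with Axl, 0.764 with Mrc1, 0.714 with Slc40a1, 0.644 with Cd5l, 0.60 with Mertk, 0.579 with Hmox1, 0.577 with Spic and 0.488 with Cd163. Thinned to 2000 UMIs, these were 0.781, 0.668, 0.620, 0.643, 0.578, 0.459, 0.533, 0.429 and 0.392. It was 0.013 with Csf1r and 0.315 with the C1q sum. Genes of major histocompatibility complex (MHC) class II, which present antigen to T cells, went the other way. Vcam1 and the sum of H2-Aa, H2-Ab1 and H2-Eb1 had a rho of -0.527, and -0.526 thinned. All points are cells of 1 pool that share its free RNA, and their depth differs.

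**Figure D3:**
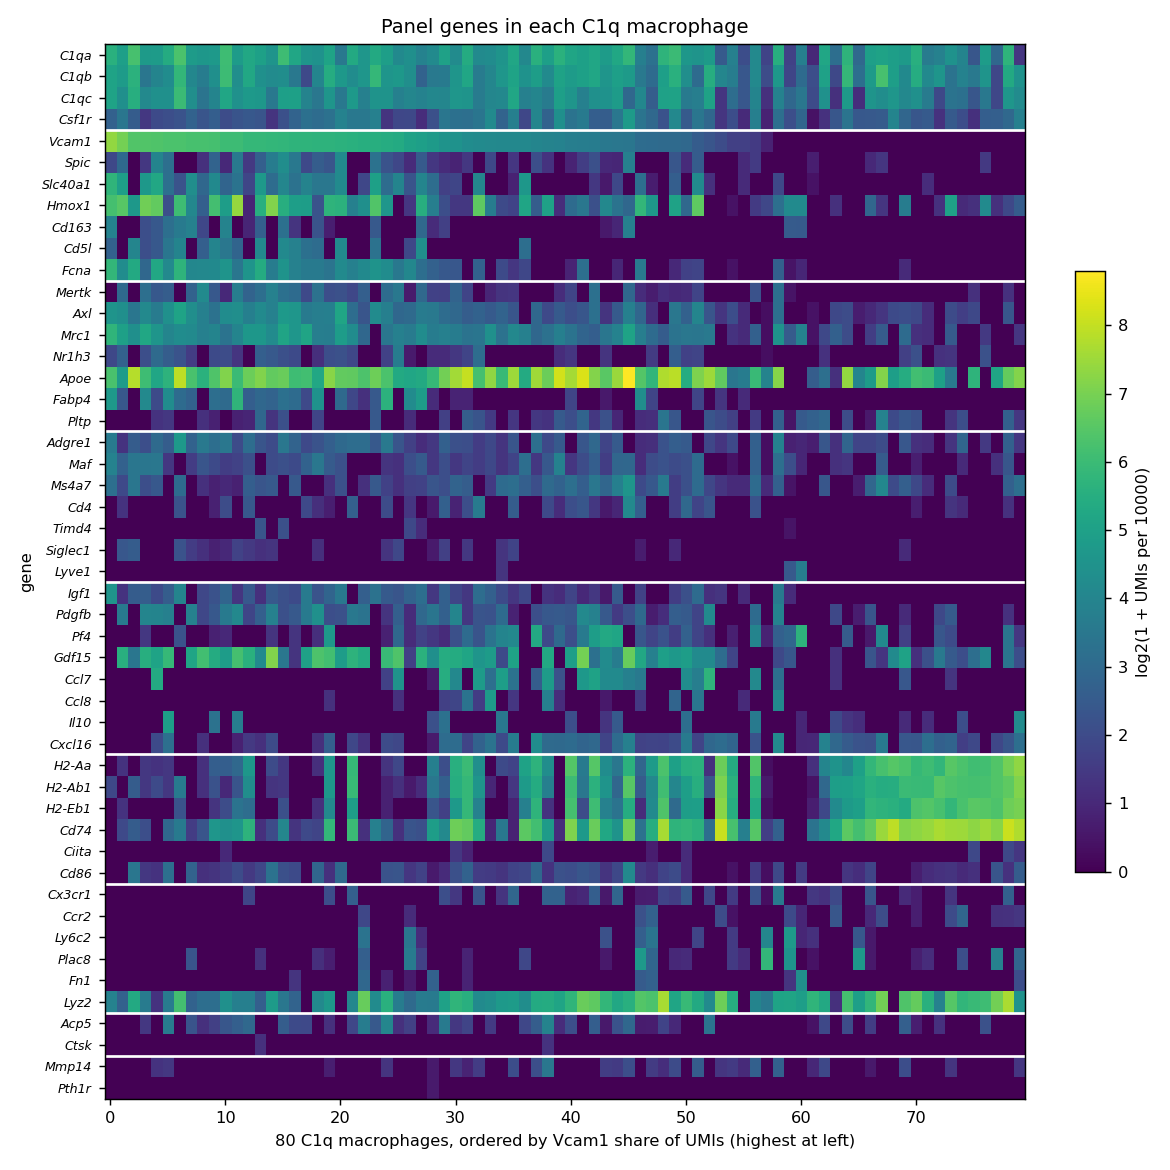
UMIs per 10000, as log2 of the value plus 1 (colour), of 49 panel genes (rows, grouped by role) in each of the 80 C1q macrophages (columns), ordered by their share of Vcam1 UMIs. Slc40a1, Fcna, Axl and Mrc1 are bright at the left with Vcam1, and H2-Aa, H2-Ab1, H2-Eb1 and Cd74 at the right, where Vcam1 was 0 in 22 cells.

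To describe this range, the cells were set out by Vcam1 UMIs, with bounds chosen after their values were seen and 6 cells between 8 and 11 UMIs close to the upper bound. There were 43 cells with 10 or more Vcam1 UMIs, 15 with 1 to 9 and 22 with 0, at median depths of 7912, 6485 and 7389.5 UMIs. Slc40a1 stood at 780 CPM (695 to 872) in the first, 215 CPM (147 to 303) in the second and 13.1 CPM (2.71 to 38.3) in the third. Fcna stood at 1102, 60.3 and 21.9 CPM, Axl at 998, 349 and 131 CPM, Hmox1 at 3202, 1066 and 590 CPM and Mrc1 at 1488, 469 and 293 CPM. Cd5l had 131 of its 134 UMIs in the first and 0 in the third, and Igf1 was at 358, 114 and 30.6 CPM. Of the rule's genes, which every cell had to hold, the C1q sum was at 7179, 4820 and 4711 CPM and Csf1r at 681, 530 and 429 CPM. Ms4a7, a surface protein of tissue macrophages, was at 386, 328 and 227 CPM.

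MHC class II showed the opposite order, with the 3 genes at 3248 CPM (3072 to 3431) in cells with 10 or more Vcam1 UMIs, 9579 CPM (9089 to 10089) in those with 1 to 9 and 12802 CPM (12343 to 13275) in those with 0. Of the 22 cells without Vcam1, 16 had 50 or more MHC class II UMIs, 3 had 1 to 49 and 3 had none. Of the 43 cells with 10 or more Vcam1 UMIs, 8 had 50 or more, 27 had 1 to 49 and 8 had none. RNA of other kinds also differed between these cells. The neutrophil list was at 7925, 21820 and 31737 CPM in cells with 10 or more, 1 to 9 and 0 Vcam1 UMIs, with 9, 7 and 6.5 UMIs at the median cell. The cell cycle list was at 53.3, 509 and 783 CPM, with 0, 0 and 1 UMIs at the median cell and 6, 40 and 63 at the highest. Their part in the order of MHC class II was not tested. High Vcam1 and high MHC class II were seen in the same cell at times, and the plot of both shows cells in every quadrant. Thinned to 2000 UMIs, cells with a Slc40a1 UMI held 4.33 MHC class II UMIs on average and cells without it 23.9.

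**Figure D4:**
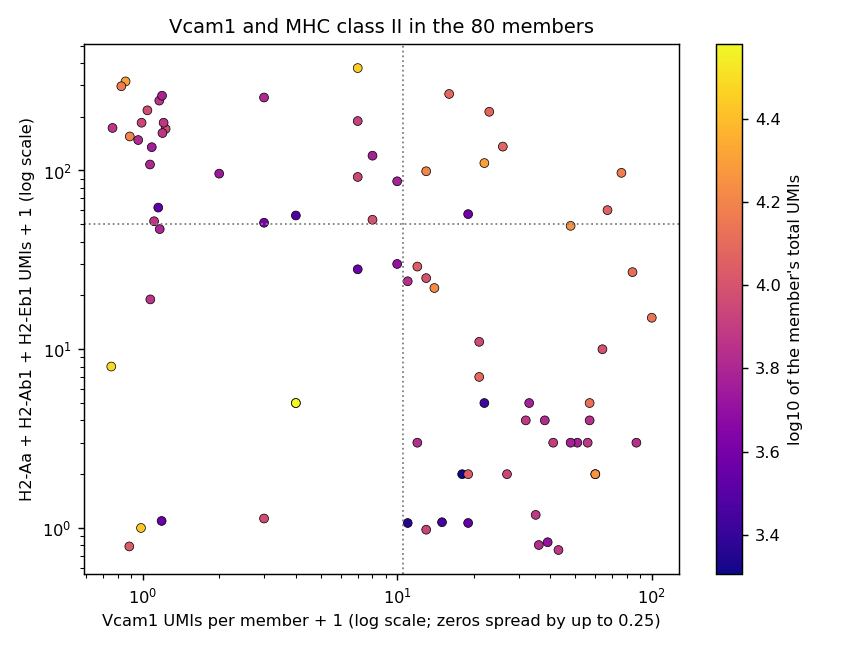
Vcam1 UMIs plus 1 (x axis, log scale) against the summed UMIs of H2-Aa, H2-Ab1 and H2-Eb1 plus 1 (y axis, log scale) in the 80 C1q macrophages, coloured by the log10 of total UMIs, with dotted lines just below 10 and 50 UMIs. Of the 22 cells at 0 Vcam1 UMIs 16 are at or above the upper line, and of the 43 cells right of the vertical line 35 are below it.

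Summed over all 80 cells, MHC class II was higher than in the monocytes. H2-Ab1 had 0, 8.5 and 135 UMIs at the lowest, median and highest cell and a log2 ratio of 2.21 (2.13 to 2.29), H2-Aa was at 2.33 (2.25 to 2.41), H2-Eb1 at 2.48 (2.40 to 2.57) and Cd74, the invariant chain that accompanies them, at 2.19 (2.14 to 2.24). Against monocytes that also held Ly6c2, these 4 ratios were 3.29, 3.40, 3.65 and 3.16. Of 9 tested genes in the list of MHC class II and costimulation, 5 were at least 2-fold higher, Cd80 was lower at -1.15 from 6 UMIs with an interval that includes 0 (-2.62 to 0.0049), and the median was 1.11. Cd86, a costimulator of T cells as Cd80 is, was at 1.11 (0.85 to 1.37). Ciita, the activator of the class II genes, had 13 UMIs and was under the minimum of the comparison. MHC class II is also made by B cells and dendritic cells. The 3 genes were at 7303 CPM in the C1q macrophages, 1448 CPM in the monocytes and 1036 CPM in the B-lineage barcodes. Of the 34 cells with 50 or more class II UMIs, 15 held a UMI of the B-cell genes Cd79a, Cd79b, Ebf1 or Pax5, with 48 UMIs in all, and of the other 46 cells 23 did, with 76 UMIs. Of the 16 class II-rich cells without Vcam1, 9 held none. The dendritic cell list summed to 50 UMIs in the 34 cells and 35 in the 46, with 6 and 3 UMIs of Flt3, 3 and 1 of Zbtb46, 15 and 6 of Itgax, 5 and 5 of Ccr7 and 6 and 13 of Siglech. Their part in the result was not tested.

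Other genes were spread unevenly. Ccl7 was at 675 CPM (597 to 762), 724 CPM (594 to 874) and 39.4 CPM (18.0 to 74.7) in cells with 10 or more, 1 to 9 and 0 Vcam1 UMIs, although its rho with Vcam1 CPM over all cells was -0.042. It reached 3 or more UMIs in 24 cells, of which 23 had no Cd5l. Of the 20 cells with Cd5l, 19 had 10 or more Vcam1 UMIs. Vcam1, Slc40a1, Hmox1 and Spic were all seen in 31 cells and none of them in 5. Lyve1, a hyaluronan receptor of macrophages beside vessels, was seen in 3 cells, and 25 of its 26 UMIs were in 2 cells without Vcam1. Timd4, a phosphatidylserine receptor, was seen in 5 cells. Siglec1, the adhesion receptor CD169 used to define marrow island macrophages, was seen in 22 cells with up to 3 UMIs, 20 of them with 10 or more Vcam1 UMIs.

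A cell was counted as cycling when 2 or more of the genes Birc5, Mki67 and Top2a had a UMI. This held for 13 of 80 cells, or 16.3% (8.95% to 26.2%), and by 29.8% (26.5% to 33.3%) of the monocytes, and at 2000 UMIs by 6.06% and 15.2%. Of the 13 cells, 8 had no Vcam1, 3 had 1 to 9 UMIs and 2 had 10 or more. Their median depth was 14763 UMIs against 7356 in the others, and Mki67 was also seen in 45.5% of the neutrophil barcodes. The part of depth and of RNA from other cells in these shares was not tested. Of 12 tested cell cycle genes 7 were at least 2-fold lower and none higher. Of the 12, 8 had under 50 UMIs in the C1q macrophages and passed the minimum with the counts of the monocytes. None of the other 4 was 2-fold lower, and their median log2 ratio was -0.41.

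Because island macrophages engulf erythroid nuclei, erythroid RNA was looked for in each cell. Globin UMIs (Hba-a1, Hba-a2, Hbb-bs and Hbb-bt) numbered 3 at the lowest, 13.5 at the median and 114 at the highest C1q macrophage. The medians of the other classes were 14 in the monocytes, 13 in the neutrophils, 11 in the B-lineage barcodes and 16 in the chondrocytes, against 4561 in the erythroblasts. The median C1q macrophage thus lay among the classes without an erythroid rule, although their depths differ, with medians from 3127 UMIs in the B-lineage barcodes to 16969 in the chondrocytes. The genes of the erythroid list made up at most 1.73% of a C1q macrophage's UMIs, and 2 of 80 cells were above 1%. These 2 held 114 and 71 globin UMIs, with 52 and 68 of C1q and 35 and 32 of Vcam1.

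In sum, the erythroid list was at 1874 CPM (1779 to 1973) in the C1q macrophages and 20965 CPM in the monocytes. The higher value of the monocytes came from 30 of 738 barcodes with over 1% of erythroid UMIs, which held 94.1% of them. Hence Hbb-bs, Hbb-bt and Hba-a1, at log2 ratios of -3.62, -3.64 and -3.40, turned to 0.34, 0.29 and 0.43 when barcodes rich in erythroid or neutrophil RNA were left out of both groups. By Vcam1, globin was at 2120 CPM (1979 to 2269) in cells with 10 or more UMIs, 1669 CPM in those with 1 to 9 and 1290 CPM (1147 to 1446) in those with 0, with 15, 13 and 11 UMIs at the median cell. The median cell's globin CPM was 1657, 1841 and 1302, so that the cells with 1 to 9 Vcam1 UMIs were highest by that measure, and both cells above 1% erythroid RNA were among those with 10 or more. Erythroid transcripts other than globin were few. They numbered 4.86 per 100 globin UMIs in the C1q macrophages, 2.42 in the erythroblasts and 1.53 in the monocytes, and Slc25a37 and Fech, of mitochondrial iron import and haem synthesis, gave 19 and 11 of the 67 UMIs. Klf1 and Rhag, defining genes of erythroid cells, had no UMI in the 80 cells.

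**Figure D5:**
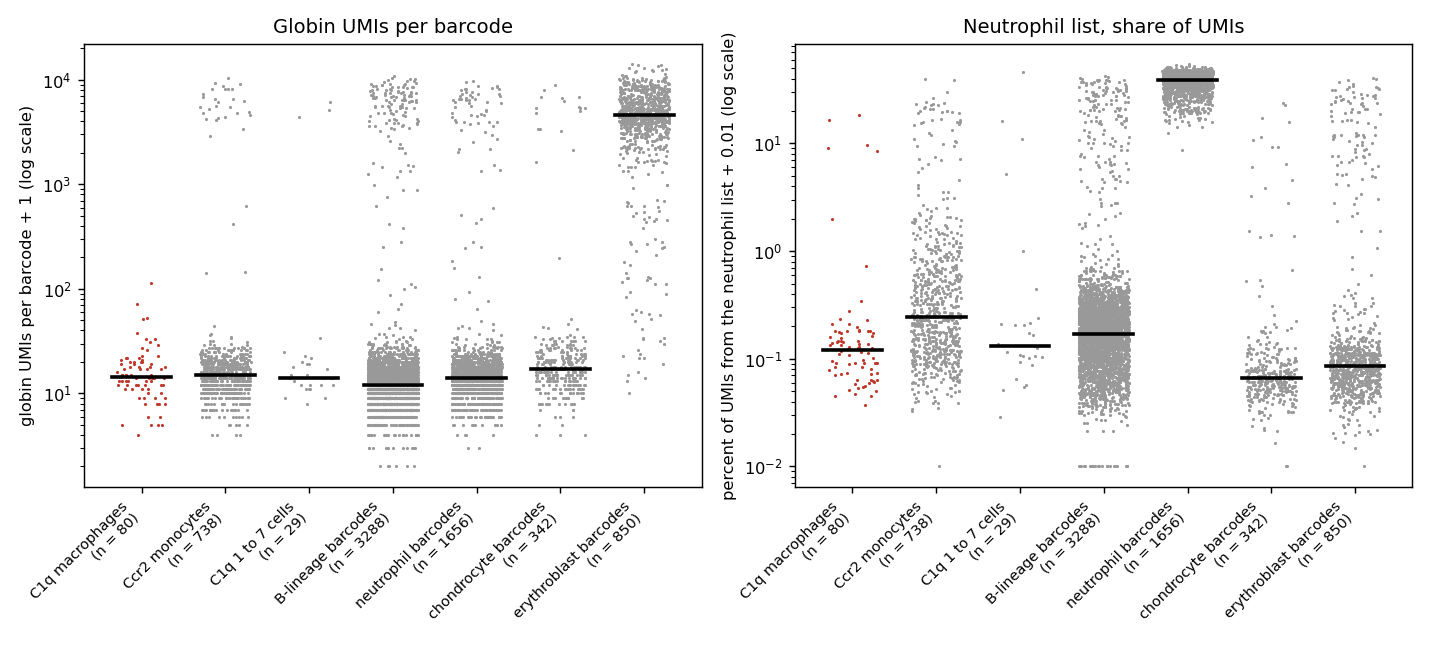
Globin UMIs per barcode plus 1 (left, log scale) and percent of UMIs from the neutrophil list plus 0.01 (right, log scale) in C1q macrophages (red) and other classes (grey), with black bars at the medians. The C1q macrophages lie with the other classes in globin, at a median of 13.5 UMIs before the 1 is added, and 5 of them stand above 5% in neutrophil RNA.

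Neutrophil RNA was carried by a few cells. The 20 listed genes made up 0.111% of the UMIs of a C1q macrophage at the median and 0.233% of those of a monocyte, and they were at 8 UMIs in the median C1q macrophage. In 5 cells the share was above 5%, at 18.5%, 16.6%, 9.76%, 9.04% and 8.53%, and these held 89.0% of the group's neutrophil UMIs. The cells carried genes of the secondary granules together with S100a8 and S100a9, and hardly any Elane, Mpo or Prtn3, with 1852, 399, 608, 70 and 835 secondary granule UMIs and 0, 0, 2, 1 and 0 of the primary granules. A sixth cell, at 1.99%, showed the reverse, with 746 primary granule UMIs, among them 226 of Elane, and 5 of the secondary granules. Over the group, S100a8 and S100a9 stood at 207 UMIs per 100 secondary granule UMIs, and at 192 in the neutrophil barcodes and 211 in the monocytes.

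The 5 cells also held macrophage genes, with 22, 35, 144, 29 and 93 C1q UMIs and 1, 4, 10, 1 and 9 of Csf1r, and 3 of them held Vcam1. Their totals were 30222, 8718, 19925, 8661 and 27901 UMIs, all above the median of 7456.5, and the cell with 18.5%, which had 63 cell cycle UMIs, was the called doublet. Uptake of neutrophils and a droplet that holds a neutrophil beside a macrophage cannot be told apart from these counts. In sum the list was at 17667 CPM (17372 to 17966) in the C1q macrophages and 20911 CPM in the monocytes, and at 2224 CPM without cells rich in erythroid or neutrophil RNA and 10859 CPM without the cell that held most. Of 20 tested genes, 13 were less than 2-fold apart and 7 were lower, among them Chil3 at -1.65 and the primary granule genes Elane, Mpo, Prtn3 and Ctsg, although 1 cell held 95.8% of the Elane UMIs of the C1q macrophages. Among the 13 genes with at least 50 UMIs in the C1q macrophages, 5 were lower.

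RNA of other cells was found in the same way. Igkc, an immunoglobulin chain, had 851 UMIs, of which 746 were in 1 cell that had 3 UMIs of Cd79a, Cd79b, Ebf1 and Pax5 together, and the next cell held 36. At least 5 UMIs of the latter 4 genes were seen in 5 cells. Transcripts of T and NK cells summed to 44 UMIs, of chondrocytes to 52, of osteoblasts and stroma to 93 and of endothelium to 22, out of 771610. Prss34 and Mcpt8 of basophils had 0 UMIs in the C1q macrophages and 2844 and 1905 in the monocytes, and Col1a1 had 3 and 5328, so that low ratios of such genes describe the monocyte barcodes.

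Osteoclasts share the Csf1r lineage and were checked by their genes. Acp5, the phosphatase TRAP that osteoclasts and some macrophages make, was seen in 45 cells with up to 20 UMIs, at 201 CPM (170 to 235) and a log2 ratio of 3.80 (3.45 to 4.14). Tnfrsf11a, which encodes the receptor RANK, was at 3.37 with 24 UMIs. Ctsk, the collagen-degrading cathepsin that defines osteoclasts, had 2 UMIs in the 80 cells, and Calcr and Oscar had none. Of 6 tested osteoclast genes, 2 were higher and Car2 was lower, at -2.25. Tnfrsf11a had under 50 UMIs in the monocytes, and 1 of the other 5 was higher. Car2 had under 50 UMIs in the C1q macrophages, where Acp5 alone of the 6 reached that minimum.

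Mmp14, the membrane-bound protease that is the subject of the study, was at 80.4 CPM (61.6 to 103) in the C1q macrophages, with 62 UMIs in 29 of 80 cells and at most 7 per cell. It was at 7.57 CPM in the monocytes, a log2 ratio of 3.41 (2.89 to 3.93), at 51.3 CPM in chondrocyte barcodes and at 0.754 CPM in neutrophil barcodes, where 0.423% of cells held it at a median of 8300.5 UMIs. At 2000 UMIs it was seen in 14.3% of the C1q macrophages and 0.728% of the monocytes. In cells with 10 or more, 1 to 9 and 0 Vcam1 UMIs it was at 73.6, 134 and 56.9 CPM, with intervals that overlapped. Of the other matrix proteases and their inhibitors, Timp2 was at 3.80 (3.53 to 4.07) with UMIs in 64 cells, Mmp19 at 2.34 and Adam9 at 1.58, and Timp1 at -2.82 with 1 UMI. Pth1r, the parathyroid hormone receptor, had 1 UMI in 1 cell against 883 CPM in the chondrocytes.

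The reporter of the HC lineage was counted last. WPRE, the viral element at the end of the tdTomato transcript, had 55 UMIs or 71.3 CPM (53.7 to 92.8) in the C1q macrophages, at most 8 in a cell, and was seen in 41.3% of them (30.4% to 52.8%). It was at 66.8 CPM (61.6 to 72.4) and in 49.7% of the monocytes, and at 44.6 CPM and in 33.8% of the neutrophils, which should lack it. No C1q macrophage exceeded 14 UMIs, the threshold of the study. A count of 0 of 80 allows a share of up to 3.75% when 3 counts are taken as the limit, and the exact interval reaches 4.51%. tdTomato had 1 UMI, and GFP and Cre had 0 of 771610 UMIs, which allows up to 3.89 CPM each at 3 counts and 4.78 CPM by the exact interval. The intervals of WPRE in the C1q macrophages and the monocytes overlapped.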

How the data were processed

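Single-cell RNA was measured in 8 labelled samples of 1 group, treated as 1 pool. The deposited values are raw UMI counts of each gene in each barcode, for which the authors ran Cell Ranger 3.1.0 on an alignment to mm10, tdTomato and WPRE, and GFP and Cre are counted in the same deposited files. The sources used here do not give the release of the gene models. The matrix has 31053 genes and no barcode under 500 UMIs. Gene positions are from GENCODE M21 (GRCm38), in which 30934 identifiers were found.

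The cells, the 24 gene lists (365 of 369 genes in the files) and the naming rule were chosen with earlier results of these data known, and the bounds on Vcam1 and MHC class II UMIs were set after those values were seen. Named genes were the 12 highest ratios among genes seen in 25% of the C1q macrophages and the 12 lowest among those seen in 25% of the monocytes, without mitochondrial, ribosomal or predicted genes and those with over 50% of UMIs in 1 cell, besides defining markers. The comparison took genes whose UMIs in both groups summed to 50 or more, the rule's genes left out, and 2-fold was used as the limit. C1q macrophages apart, erythroblast barcodes had at least 3 of 6 erythroid genes, neutrophil barcodes at least 5% of UMIs from Ngp, Camp, Ltf and Lcn2, B-lineage barcodes at least 2 Cd79a UMIs and 1 of Cd79b, and chondrocyte barcodes at least 10 Col2a1 UMIs and 1 of Acan. Intervals are exact Poisson, conditional or Clopper-Pearson at 95%, and 3 counts were allowed for a zero. Thinning used 100 draws. Scrublet (scanpy 1.11.5, expected rate 6%) marked 3.26% of barcodes as doublets, which were kept. Python 3.11.15, numpy 2.4.6 and scipy 1.17.1 were used, and the ratio code was tested on simulated data.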

Additional observations from a re-analysis of the deposited data

How the results depend on the processing

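No replicate could be left out, and No paired analysis was possible because the samples form 1 group deposited as 1 pool. Intervals cover counting error only, and genes with few UMIs in 80 cells are limited by depth. Of 53 named genes past 2-fold, 50 stayed past it in the same direction in each of the 14 settings that gave them a ratio. Ccr3 had no ratio in 4 settings, and Gpd1, Vcan and Pth1r had none when each gene was taken without the cell that held most of it. The other 3 were globin genes, which without cells rich in erythroid or neutrophil RNA had log2 ratios of 0.34 (Hbb-bs), 0.29 (Hbb-bt) and 0.43 (Hba-a1). In at least 1 setting 32 of the 53 ratios moved by over 1.5 times. The number of C1q macrophages ranged from 62 to 89. The count of lower genes was 1777 when each gene was taken without the cell that held most of it, which also moved the median log2 ratio of all genes from -0.06 to -0.26.

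Erythroid RNA was at 7890 CPM with a C1q limit of 3 UMIs, 1760 with a Csf1r limit of 3, 1738 without the rich cells, 2254 with each cell weighed the same, 2251 thinned to 2000 UMIs and 1739 without the cell that held most. Neutrophil RNA was at 18415 CPM with a floor of 1600 genes, 18375 with a mitochondrial limit of 10%, 18892 and 24384 with C1q limits of 20 and 3 UMIs, 11324 with a Csf1r limit of 3, 10859 without called doublets and also without the cell that held most, 2224 without the rich cells, 18019 with totals that leave out both lists, 9146 with each cell weighed the same and 9144 thinned. The log2 ratio of the summed list of MHC class II and costimulation genes, which holds more genes than H2-Aa, H2-Ab1 and H2-Eb1, was 2.14. It was 2.05 with a C1q limit of 20, 2.24 with a Csf1r limit of 3, 2.00 without the rich cells, 2.11 with totals that leave out both lists, and 1.77 both with each cell weighed the same and thinned. The ratio was 3.03 against the 665 monocytes that also held Ly6c2 and 2.00 against the 661 that met no other class rule, both chosen for this list after seeing the data. The cause of these shifts was not tested.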
